A study of Cyanidioschyzon merolae with 29 samples.

Results

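The transcriptome of the unicellular red alga *Cyanidioschyzon merolae* was compared between cultures kept in 1 mM Ni and untreated cultures on day 10, in every gene of the count table. The 6 libraries were chosen by the dose and day of their labels, out of 29 libraries from 10 conditions. Cultures 1A, 1B and 1D had received 1 mM Ni as nickel sulfate at the start of the experiment, cultures C1, C3 and C5 had received none, and all were of the wild-type strain NIES-3377, grown in the same hot, acidic mineral medium in continuous white light. Poly(A)-selected RNA was sequenced from whole cultures, and the methods describe the 3 replicates of a condition as independent biological replicas. The table held 4984 genes, of which 4796 had enough counts to be tested.

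*C. merolae* lives in acidic hot springs, where dissolved metals are common, and its cell holds a single chloroplast and a single mitochondrion, each with its own genome. Nickel ions bind to sites of proteins that normally hold iron, zinc, manganese or magnesium, and at high doses metals of this kind damage proteins and raise reactive oxygen species. Algal cells are known to meet such stress with transporters that move metal ions across membranes, with chaperones that refold proteins and with the proteasome, which degrades them. The comparison asks which of these transcripts differed after 10 days in the lower of the study's Ni doses.

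The 6 libraries held 2996552 to 4067107 counts, and 4868 to 4904 genes had at least 1 count in each. Distances between libraries were taken as the root mean square difference of log2(CPM + 0.5) over the tested genes, CPM being a library's counts divided by its TMM-scaled library size in units of 1e+06. Libraries 1A and 1B lay closest to each other, at 0.285. Library 1D stood apart from them, at 0.412 from 1A and 0.438 from 1B, and lay nearer to C5 (0.349) and C3 (0.365). Among the untreated libraries the distances were 0.292 between C3 and C5, 0.374 between C1 and C5 and 0.504 between C1 and C3. Values are therefore given with and without 1D where a result rests on it.

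In edgeR's quasi-likelihood fit of all 29 libraries, 7 genes were DEGs between 1 mM Ni and the untreated control on day 10 (adjusted p under 0.05 by the method of Benjamini and Hochberg, with no minimum fold), which is 0.146% of the 4796 tested genes. Of these, 6 were higher in 1 mM Ni (0.125%) and 1 was lower (0.0209%). They were the unnamed genes *CMK153C*, *CMI023C* and *CMQ014C*, the hedgehog-like gene *CMO185C*, the trefoil factor-like genes *CMR001C* and *CMD002C*, and *CMR026C*, described as a DNA (cytosine-5)-methyltransferase. At an unadjusted p under 0.05 there were 183 higher genes (3.82%) and 237 lower genes (4.94%). In 539 genes (11.2%) every 1 mM library was above every untreated library, and in 576 genes (12.0%) every 1 mM library was below. RNA was pooled over whole cultures, so that a difference in the number of cells that express a gene and a difference in RNA per cell cannot be told apart.

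The plot of the DEGs by library shows each value. *CMK153C*, a gene with no description (chromosome 11, 421112 to 422020 in the ASM9120v1 assembly), stood at 52.1, 51.5 and 66.9 CPM in 1A, 1B and 1D, against 2.00, 1.47 and 1.42 CPM in C1, C3 and C5. The untreated values rest on 8, 5 and 5 counts, and those in 1 mM Ni on 162, 164 and 279 counts. The groups did not overlap, and the log2 fold change was 5.08 ± 0.59 (SE, n = 3 libraries per group; edgeR adjusted p = 4.68e-05), the largest of all tested genes. *CMO185C*, similar to hedgehog proteins (chromosome 15, 462835 to 464427), stood at 368, 351 and 333 CPM in 1 mM Ni and at 39.2, 19.7 and 47.7 CPM in the untreated cultures, a log2 fold change of 3.30 ± 0.49 (edgeR adjusted p = 0.00157). Both genes passed the threshold under every alternative that tested them, with log2 fold changes of 4.94 to 5.28 for *CMK153C* and 3.01 to 3.56 for *CMO185C*.

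**Figure D1:**
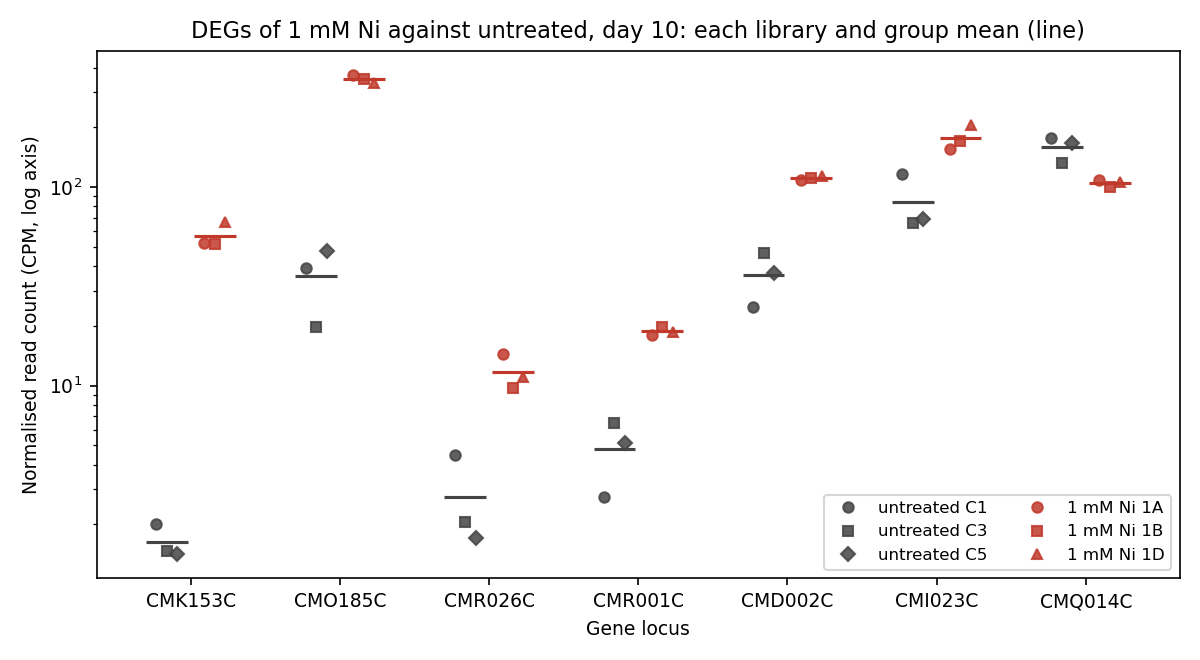
Normalised read counts (CPM, log axis) of the 7 DEGs in the 3 libraries at 1 mM Ni (red) and the 3 untreated libraries (dark grey) of day 10, with a line at each group mean. In each of the 7 genes the groups do not overlap, and the widest gap is that of *CMK153C*, with 51.5 CPM or more against 2.00 CPM or less.

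Trefoil factors are small, cysteine-rich proteins known from animals, where they are secreted with mucus. *CMR001C* (chromosome 18, 3369 to 6125) was measured at 18.0, 19.8 and 18.7 CPM in 1 mM Ni and at 2.74, 6.48 and 5.11 CPM in the controls, a log2 fold change of 1.99 ± 0.34 (edgeR adjusted p = 0.00981). *CMD002C* (chromosome 4, 3380 to 6664) was measured at 108, 111 and 114 CPM against 25.0, 46.5 and 36.9 CPM, a log2 fold change of 1.63 ± 0.33 (edgeR adjusted p = 0.0434). Each is the first gene from its chromosome end in the RefSeq annotation, and in both the 1 mM libraries lay within a narrow range above all controls. Without 1D the edgeR adjusted p was 0.0403 for *CMR001C* and 0.0567 for *CMD002C*. The call of *CMR001C* was also lost without 1B, C1 or C5, and that of *CMD002C* on leaving out any of the 6 libraries.

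Cytosine-5 methyltransferases add methyl groups to DNA. The gene so described, *CMR026C* (chromosome 18, 72630 to 74906), stood at 14.5, 9.74 and 11.0 CPM in 1 mM Ni and at 4.49, 2.06 and 1.70 CPM in the controls, with only 6 to 18 counts in a control library. Its log2 fold change was 2.05 ± 0.40 (edgeR adjusted p = 0.0376). *CMI023C* (chromosome 9, 71656 to 72696) was at 155, 171 and 205 CPM against 117, 66.2 and 68.7 CPM, with a log2 fold change of 1.07 ± 0.22 (edgeR adjusted p = 0.0462). The only DEG that was lower in Ni, *CMQ014C* (chromosome 17, 30971 to 32056), was at 109, 100.5 and 106 CPM against 176, 132 and 167 CPM, a log2 fold change of -0.59 ± 0.12 (edgeR adjusted p = 0.0468). A fit of the 6 libraries alone left *CMR026C*, *CMI023C* and *CMQ014C* outside the threshold, with edgeR adjusted p of 0.0537, 0.0537 and 0.0564. On leaving out 1 of the 6 libraries, *CMR026C* kept its call only without 1D or C1, *CMI023C* only without C1 and *CMQ014C* only without C3.

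**Figure D2:**
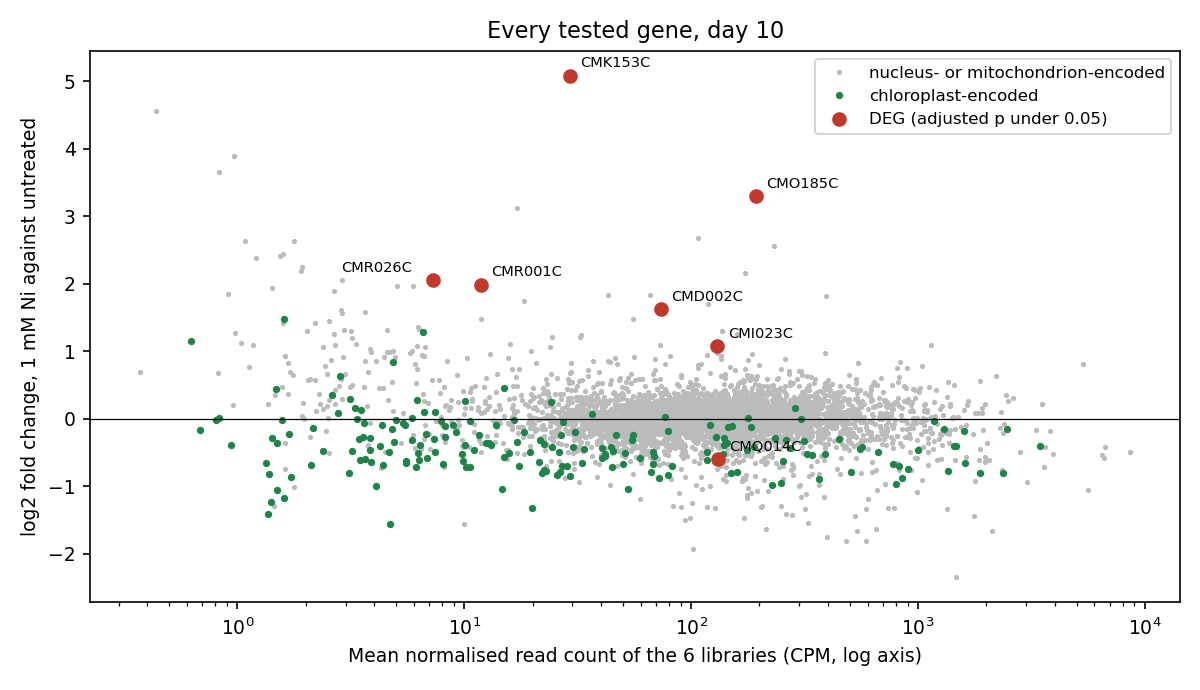
log2 fold change between 1 mM Ni and untreated cultures on day 10 against the mean normalised read count of the 6 libraries (CPM, log axis), for every tested gene. The 7 DEGs are red, *CMK153C* is at the top with 5.08, and most of the 190 chloroplast-encoded genes (green) lie below 0, with a median of -0.42.

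The DEGs were followed over the other conditions. *CMK153C* was at 1.06 to 2.29 CPM on average in untreated cultures of every day, and at 85.9 ± 6.59 (SD, n = 3), 56.8 ± 8.71 (n = 3) and 20.2 ± 1.16 CPM (n = 2) on days 5, 10 and 15 in 1 mM Ni. In 3 mM Ni it was at 181 ± 43.1, 44.5 ± 41.2 and 86.0 ± 23.9 CPM on the same days (n = 3 each). *CMO185C* was at 185 ± 41.3, 351 ± 17.7 and 189 ± 114 CPM in 1 mM Ni, while its untreated mean was lowest on day 10, at 35.5 ± 14.3 CPM, against 67.3 ± 37.9 on day 5 and 93.9 ± 79.7 on day 15. *CMQ014C* was nearly level in 1 mM Ni, at 108 ± 5.72, 105 ± 4.30 and 114 ± 19.6 CPM, and its untreated mean was 74.3 ± 3.05 CPM on day 0, 111 ± 11.8 on day 5, 158 ± 23.6 on day 10 and 126 ± 19.6 on day 15. The lower value in Ni on day 10 thus stands against the highest of the untreated means.

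**Figure D3:**
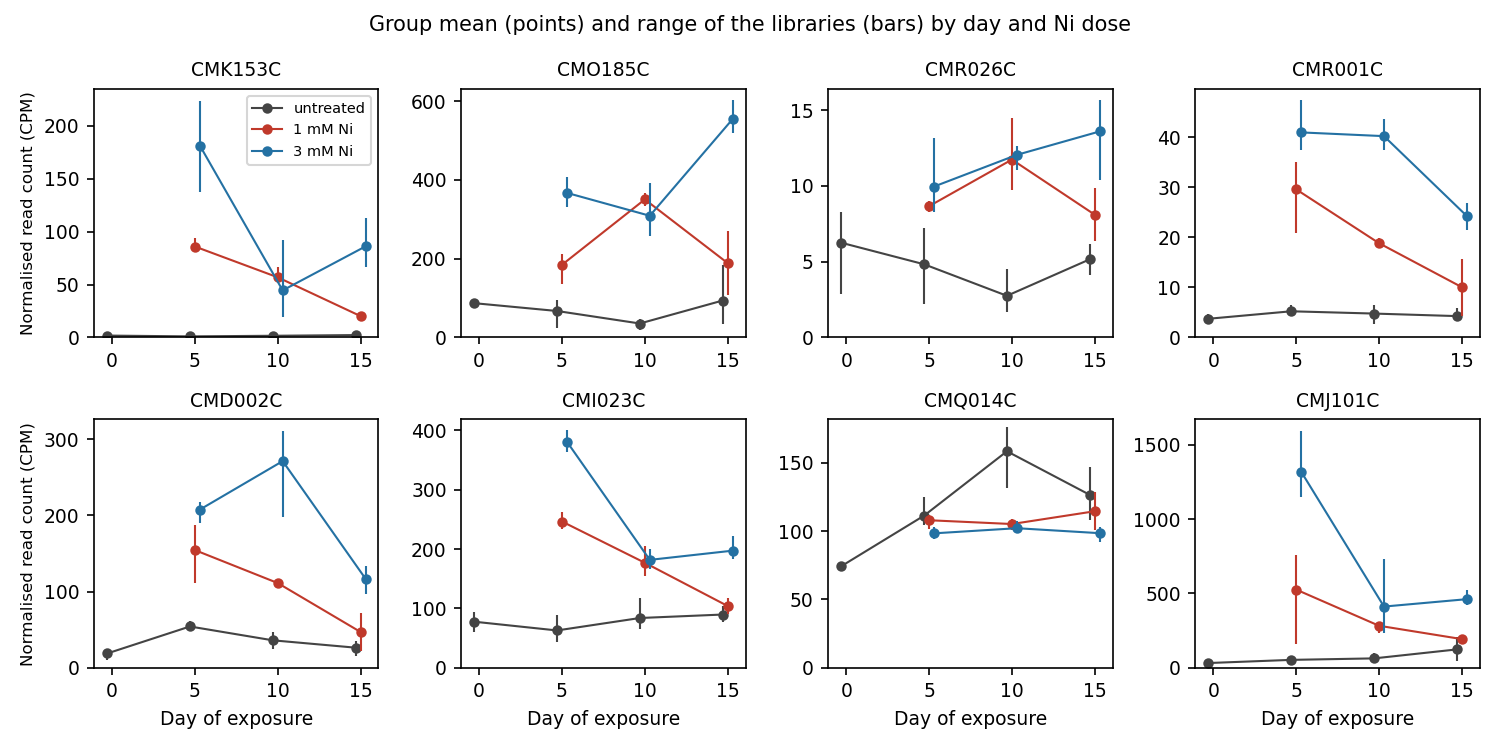
Normalised read counts (CPM) of the 7 DEGs and of the small heat shock gene *CMJ101C* by day of exposure, with group means as points and the range of the libraries as bars, for untreated (dark grey), 1 mM Ni (red) and 3 mM Ni (blue) cultures. On day 10 the 1 mM mean of *CMO185C*, 351 CPM, lies next to the 3 mM mean of 309 CPM, and that of *CMD002C*, 111 CPM, lies between the untreated 36.1 CPM and the 271 CPM of 3 mM Ni.

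Several genes came close to the threshold. Of the genes whose groups did not overlap, the next higher ones were *CMT163C*, *CMI068C*, *CMI286C*, *CMP236C*, *CMO184C*, *CMJ101C*, *CMT165C* and *CMH049C*. Alternative fits were made of only the 6 libraries (1.61% of genes called), with DESeq2 (0.627%) and without the untreated day 15 library C1 (1.06%). In each of these *CMT163C*, *CMI068C*, *CMO184C*, *CMJ101C* and *CMT165C* passed the threshold. *CMJ101C*, which encodes an hsp20-type chaperone of the kind that holds unfolded proteins in solution, stood at 304, 312 and 233 CPM against 50.2, 101 and 39.5 CPM (log2 fold change 2.16 ± 0.51, edgeR adjusted p = 0.0994). *CMI286C*, which has no description, was at 218, 260 and 82.2 CPM against 56.6, 9.72 and 19.6 CPM, so that 1D lay near the highest control (2.68 ± 0.59, adjusted p = 0.0579 in edgeR). *CMT165C*, a 3-deoxy-heptulosonate phosphate synthase that opens the shikimate pathway to aromatic amino acids, was at 105, 106 and 88.7 CPM against 46.4, 48.3 and 44.9 CPM (1.10 ± 0.28, edgeR adjusted p = 0.131). *CMT163C* and *CMI068C* had log2 fold changes of 0.98 ± 0.21 and 0.94 ± 0.20, with edgeR adjusted p of 0.0566 and 0.0579. *CMP236C* had 22 to 37 counts in each 1 mM library and 5 to 11 in each control, and *CMH049C* had 9 counts in each 1 mM library and 2, 1 and 2 in the controls.

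The next lower genes were *CMT009C*, *CMQ297C*, *CMV151C*, *CMQ289C*, *CMI007C*, *CMV236C*, *CMN032C* and *CMN207C*. Of these, *CMT009C* and *CMQ297C* passed the threshold in each of the alternative fits just named. *CMQ297C*, with no description, was at 453, 459 and 467 CPM in 1 mM Ni against 869, 803 and 709 CPM, with 1D beside 1A and 1B (-0.79 ± 0.18, edgeR adjusted p = 0.0814). *CMV236C*, subunit XI of the photosystem I reaction center, encoded by the chloroplast, was at 108, 147 and 203 CPM against 249, 372 and 284 CPM (-0.98 ± 0.24, edgeR adjusted p = 0.101). *CMV151C*, the chloroplast ribosomal protein L20, was at 45.6, 52.1 and 72.4 CPM against 92.8, 111 and 99.9 CPM (-0.83 ± 0.20, edgeR adjusted p = 0.0994). In both chloroplast genes 1D was the highest of the 1 mM libraries. *CMQ289C*, a glyoxylate or hydroxypyruvate reductase, was at 106, 89.8 and 128 CPM against 199, 162 and 170 CPM (-0.71 ± 0.17, edgeR adjusted p = 0.0994). *CMT009C*, *CMI007C* and the esterase-like *CMN032C* had log2 fold changes of -0.57, -0.62 and -0.64, with edgeR adjusted p of 0.0579, 0.0994 and 0.116.

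Of 26 genes described as trefoil or hedgehog-like, 25 were tested. Of these, 3 were DEGs (12.0%, against 0.146% of all tested genes), each of them higher in 1 mM Ni. At an unadjusted p under 0.05, 9 were higher (36.0%, against 3.82% of all genes) and 0 lower. The median log2 fold change of the list was 0.02, beside 0.00 for all genes. Without overlap, 8 members lay above the controls (32.0%, against 11.2% of all genes) and 5 below (20% of the 25, against 12.0%). *CMO184C*, the hedgehog-like neighbour of *CMO185C* on chromosome 15 (460969 to 462495), was at 427, 382 and 378 CPM against 68.6, 45.0 and 88.3 CPM (2.55 ± 0.59, edgeR adjusted p = 0.0814). The trefoil genes *CMA001C*, *CME001C* and *CMD191C*, named here after their values were seen, are also the first genes from a chromosome end and had log2 fold changes of 1.22 ± 0.33, 1.06 ± 0.34 and 1.01 ± 0.29. In a fit of the 6 libraries alone, in which 1.61% of genes were called, 4 members passed, *CMO184C* being added, and with DESeq2, which called 0.627%, 5 passed, *CMA001C* being added as well. The hedgehog-like genes other than *CMO185C* and *CMO184C* had log2 fold changes between -0.35 and 0.27. The first place from a chromosome end was also held by members with smaller or negative values, so it was not particular to the higher ones. Examples, named after their values were seen, were *CMB162C* (0.42), *CMP002C* (0.02), *CMK001C* (-0.22) and *CMH001C* (-0.35). Reads that fit several copies of a family are not counted by the counter's default, so the values of near-identical members are uncertain.

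**Figure D4:**
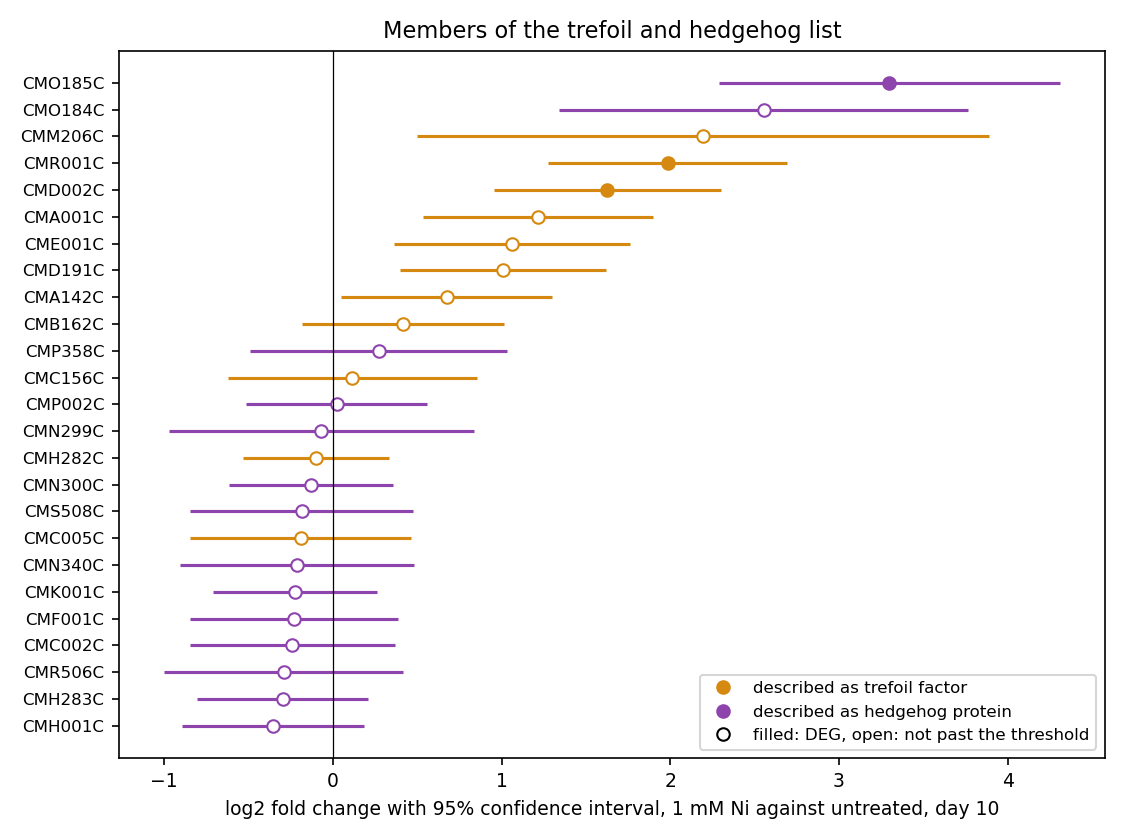
log2 fold change between 1 mM Ni and untreated cultures on day 10, with its 95% confidence interval, for the 25 tested genes described as trefoil factor (orange) or hedgehog protein (purple), filled where the gene was a DEG. The values run from -0.35 to 3.30, the 3 DEGs are *CMO185C*, *CMR001C* and *CMD002C*, and the widest interval is that of *CMM206C* (named after its values were seen), with 2 to 3 counts in each control.

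Chaperones refold or hold damaged proteins, and the proteasome degrades them. None of the 48 tested chaperone genes was a DEG in the main fit, while *CMJ101C* passed in the alternative fits named above. An unadjusted p under 0.05 was found for 7 in the higher direction (14.6%, against 3.82% of all tested genes) and 0 in the lower (against 4.94%). Of the 48, 37 had a positive log2 fold change, with a median of 0.18. Next to *CMJ101C* in rank stood the chaperonin subunit *CMG005C* (80.4, 71.0 and 66.9 CPM against 56.4, 49.5 and 50.0 CPM; log2 fold change 0.48 ± 0.17) and the DnaJ homolog *CML030C* (648, 725 and 455 CPM against 476, 331 and 355 CPM; 0.65 ± 0.24). In *CML030C* library 1D lay below the highest control. Over the list, the median difference from the control mean was 0.31 in 1A, 0.29 in 1B and 0.06 in 1D, against 0.09 in C1. Without 1D the median log2 fold change of the list was 0.29.

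In the proteasome list 0 of 28 genes were DEGs, 3 were higher at an unadjusted p under 0.05 (10.7%, against 3.82% of all genes) and 23 had a positive log2 fold change, with a median of 0.20. Groups did not overlap in 13 genes, each of them higher in 1 mM Ni, which is 46.4% of the list against 11.2% of all tested genes. The medians were 0.23, 0.20 and 0.16 in 1A, 1B and 1D and -0.02 to 0.01 in the controls, and here 1D was with the other 1 mM libraries. *CMG170C*, the regulatory subunit RPN7, was at 86.5, 103 and 79.3 CPM against 56.1, 37.7 and 51.7 CPM (0.88 ± 0.25), and the alpha-type subunit *CMR302C* was at 143, 119 and 117 CPM against 88.6, 88.9 and 89.7 CPM (0.50 ± 0.19). Only *CMG170C* passed in the fit of the 6 libraries alone (1.61% of all genes called). No member passed with DESeq2 or without the untreated day 15 library C1. Genes of cytosolic ribosomal proteins had a median of 0.15, with 54 of 66 positive and 0 DEGs, and *CMQ293C*, ribosomal protein L4 (362, 380 and 304 CPM against 245, 261 and 238 CPM), was 1 of 2 with an unadjusted p under 0.05 (3.03%, against 3.82% of all genes). Without overlap, 28.8% of the 66 lay above the controls (against 11.2% of all genes) and 0% below (against 12.0%). The 42 tested genes of the ubiquitin pathway had a median of 0.05 and 0 DEGs.

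Chloroplast-encoded genes were lower on balance, but not in every 1 mM library. Of 207 such genes 190 were tested, 0 were DEGs, 31 were lower at an unadjusted p under 0.05 (16.3%, against 4.94% of all genes) and 0 were higher, and 165 had a negative log2 fold change, with a median of -0.42 against 0.00 for all genes. The median difference from the control mean was -0.68 in 1A and -0.77 in 1B, and 0.07 in 1D, against -0.29, 0.21 and 0.10 in C1, C3 and C5. Without 1D the median log2 fold change of the list was -0.78. With DESeq2, which called 0.627% of all genes, 4 of the 190 passed the threshold, each of them lower. They were *CMV151C*, *CMV236C*, *CMV048C* and *CMV240C*. In the fit of only the 6 libraries 2 passed (1.61% of all genes called), and without the untreated day 15 library C1 2 passed (1.06%), all lower. The share of all counts on chloroplast-encoded genes was 2.94%, 2.77% and 3.91% in 1A, 1B and 1D and 3.77%, 4.73% and 4.32% in C1, C3 and C5, a difference of -1.06 percentage points (exact two-sided permutation test, p = 0.2, where 3 against 3 libraries allow no p below 0.1). Poly(A) selection captures chloroplast transcripts incompletely, and some samples of the study received an extra purification that the sources used here do not assign to libraries, so the part of RNA handling in this difference was not tested.

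A further list held the chloroplast-encoded genes for photosystems, the light-harvesting phycobilisome, cytochromes, ATP synthase and, by the list's search words, Rubisco. Of these, 53 were tested, 14 were lower at an unadjusted p under 0.05 (26.4%, against 4.94% of all genes) and 21 (39.6%) lay below the controls without overlap, against 12.0% of all genes. The median was -0.48. Beside *CMV236C*, *CMV048C*, the B18 chain of the phycobilisome pigment protein allophycocyanin, was at 463, 544 and 622 CPM against 975, 1291 and 917 CPM (-0.97 ± 0.26, edgeR adjusted p = 0.174), and *CMV240C*, photosystem II protein I, was at 3.54, 17.3 and 12.9 CPM against 25.7, 31.5 and 27.8 CPM (-1.32 ± 0.35, edgeR adjusted p = 0.174). In these genes 1D stayed below the controls. The chloroplast ribosomal protein genes differed: their 35 tested members had medians of -0.70, -0.83 and 0.51 in 1A, 1B and 1D and of -0.73, 0.49 and 0.24 in C1, C3 and C5, with 2 members (5.71%) below the controls without overlap. Their median log2 fold change of -0.30 became -0.05 without 1B and -1.05 without 1D.

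Nucleus-encoded genes of photosynthesis and pigments had a median of -0.16, with 0 DEGs among 34 and 8 (23.5%, against 12.0% of all genes) below the controls without overlap. *CMJ043C*, which attaches the pigment phycocyanobilin to its protein, was at 129, 154 and 155 CPM against 173, 211 and 199.9 CPM (-0.42 ± 0.12, edgeR adjusted p = 0.194). *CMG110C*, which makes phycocyanobilin, was at 167, 157 and 167 CPM against 240.1, 319 and 218 CPM (-0.66 ± 0.27). *CMO314C*, the photosystem II assembly factor HCF136, was at 337, 328 and 340.1 CPM against 419, 402 and 367 CPM (-0.24 ± 0.11), with all 3 Ni libraries below the controls.

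Carbon fixation genes, which turn CO2 into sugar phosphates in the Calvin cycle, had a median of -0.39, with 0 DEGs among 15 and 8 of 15 below the controls without overlap (53.3%, against 12.0% of all genes). *CMT416C*, similar to carbonic anhydrases that interconvert CO2 and bicarbonate, was at 161, 138 and 342 CPM against 645, 931 and 673 CPM (-1.81 ± 0.73, edgeR adjusted p = 0.453). *CMO121C*, a transketolase, was at 230.2, 196 and 530.0 CPM against 713, 1132 and 1132 CPM (-1.64 ± 0.60, edgeR adjusted p = 0.395). In both, 1D lay between the other 1 mM libraries and the controls, and without 1D the log2 fold changes of *CMT416C* and *CMO121C* were -2.32 and -2.22. Of the list, only *CMT416C* passed in the fit of the 6 libraries alone (1.61% of all genes called). No member passed with DESeq2 or without the untreated day 15 library C1. *CMN207C*, similar to the methyltransferase of the Rubisco large subunit, was more even, at 49.2, 54.0 and 59.2 CPM against 81.4, 71.2 and 73.3 CPM (-0.47 ± 0.12, edgeR adjusted p = 0.133).

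The list of glycolysis and adjoining enzymes had a median of 0.46, with 0 DEGs among 23. Besides steps from sugar phosphates to pyruvate, its words took in 5 L-lactate dehydrogenases, which interconvert pyruvate and lactate, a D-lactate dehydrogenase and a ketohexokinase. Of the 23 genes, 10 lay above the controls without overlap (43.5%, against 11.2% of all genes) and 3 below (13% of the 23, against 12.0%). The 5 L-lactate dehydrogenases *CMJ002C*, *CMK006C*, *CMC188C*, *CMI306C* and *CMA145C*, named after their values were seen, made up 5 of those 10, with log2 fold changes of 0.46 to 0.93 and edgeR adjusted p of 0.577 or more. Each is the first or second gene from a chromosome end, and as members of a family of similar copies their counts are uncertain. *CMK006C* was at 190, 182 and 162 CPM against 96.3, 89.5 and 93.4 CPM, and 1D was with the other 1 mM libraries. Without the 5 genes the median of the other 18 was 0.14, with 5 above (27.8%) and 3 below the controls (16.7%), and of the 16 left when the D-lactate dehydrogenase and the ketohexokinase were also taken out it was 0.22. These divisions were made after the values were seen. At an unadjusted p under 0.05 the list had 4 higher members (17.4%, against 3.82% of all genes) and 1 lower (4.35%, against 4.94%), none of them a lactate dehydrogenase. The first in rank of the 4, the glyceraldehyde-3-phosphate dehydrogenase *CMJ250C*, had only 12, 4 and 7 counts in 1 mM Ni and 0, 3 and 3 in the controls. Enolase, *CMK131C*, was at 1187, 1246 and 922 CPM against 740.1, 596 and 651 CPM (0.76 ± 0.33). The pyrophosphate-dependent phosphofructokinase *CMH052C* was at 172, 206 and 152 CPM against 115, 86.6 and 85.2 CPM (0.89 ± 0.38). In the fit of only the 6 libraries, where 1.61% of all genes were called, 3 of the 23 passed, each of them higher. They were *CMH052C* and the L-lactate dehydrogenases *CMI306C* and *CMK006C*. With DESeq2, and without the untreated day 15 library C1, 0 of the 23 passed. The list medians by library were 0.45, 0.37 and 0.13 in 1A, 1B and 1D and at most 0.04 in the controls, and the median log2 fold change was 0.50 without 1D.

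**Figure D5:**
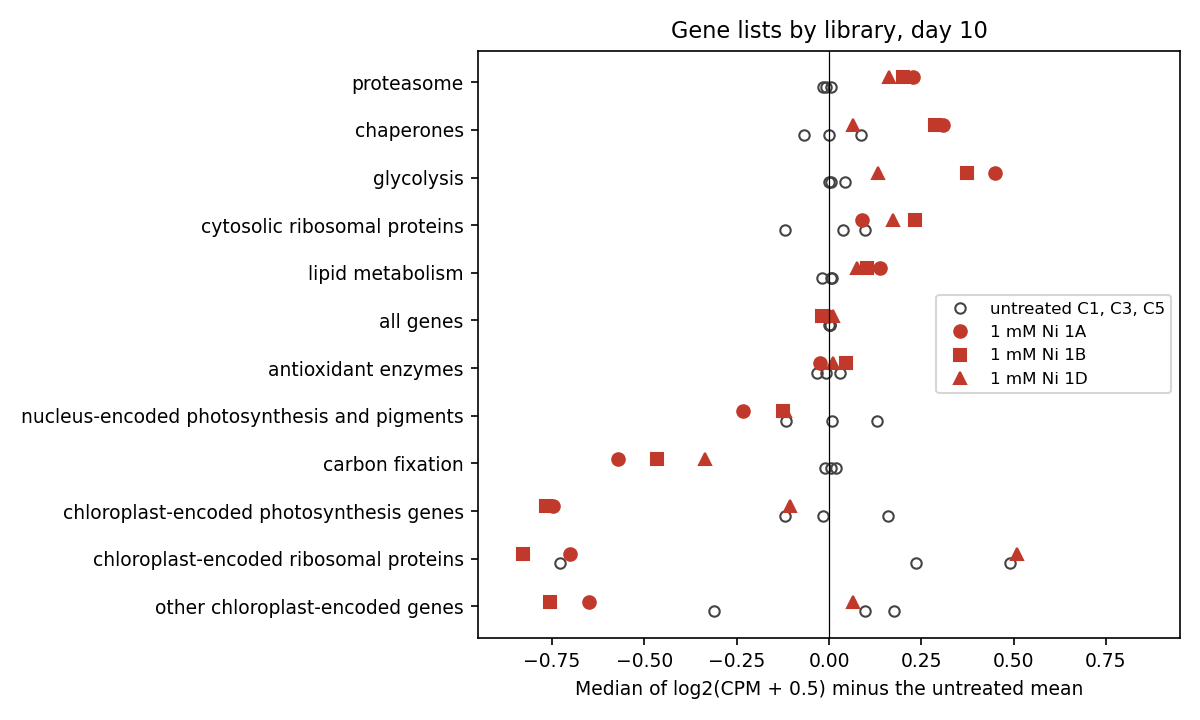
Median over each gene list of log2(CPM + 0.5) minus the mean of the 3 untreated libraries, for each 1 mM Ni library (red, by shape) and each untreated library (open circles) of day 10. Library 1D lies with 1A and 1B for the proteasome (0.16) and carbon fixation (-0.33), but at 0.51 for chloroplast-encoded ribosomal proteins and at 0.06 for the other chloroplast-encoded genes, away from 1A and 1B.

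The 15 genes of metal transport and binding had a median of -0.04, with 0 DEGs, 4 above the controls without overlap (26.7%, against 11.2% of all genes) and 4 below (26.7%, against 12.0%). The study lists these loci as DEGs of its Ni treatments, and where its text names a condition it is 3 mM Ni or day 5 of 1 mM Ni. Its comparisons on day 10 share the untreated libraries used here, so the shares are a description that is not independent of the data. *CML262C*, a probable metal ion transporter named CmNRAMP2 in the study, was at 77.8, 79.1 and 88.0 CPM against 23.2, 35.0 and 29.8 CPM, with groups far apart but an edgeR adjusted p of 0.181 (1.48 ± 0.41). It passed in the fit of the 6 libraries alone (1.61% of all genes called), but not with DESeq2 or without the untreated day 15 library C1. Its 1 mM mean on day 10 was 81.6 ± 5.53 CPM, and on day 5 195 ± 70.9 CPM. *CMS155C*, a probable zinc transporter, was at 29.3, 32.7 and 23.0 CPM against 14.2, 5.01 and 5.39 CPM (1.75 ± 0.79, edgeR adjusted p = 0.524), and the zinc transporter-like *CMG102C* had a log2 fold change of 0.40 ± 0.16. *CMN003C*, an iron permease homolog by the study's naming, was at 18.3, 18.8 and 19.9 CPM against 30.4, 24.4 and 33.2 CPM (-0.63 ± 0.20), and the manganese transporter-like *CMC075C* had -0.40 ± 0.17. The iron permease-like *CML004C* (-0.02 ± 0.37) and the sodium-dependent transporter *CML032C* (0.35 ± 0.19) did not pass the threshold either, and *CMG092C*, similar to a periplasmic protein, had 3 counts or fewer in each of the 6 libraries.

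Antioxidant enzymes had a median of 0.01, with 0 DEGs among 37, 5 above the controls without overlap (13.5%, against 11.2% of all genes) and 11 below (29.7%, against 12.0%). The lower ones were led by *CMQ397C*, an S-formylglutathione hydrolase that acts in formaldehyde removal and entered the list by the search word glutathione. It was at 74.9, 64.7 and 173 CPM against 249, 369 and 351 CPM (-1.63 ± 0.54, edgeR adjusted p = 0.335), with 1D again between. The thioredoxin-like *CMT037C* and the monodehydroascorbate reductase *CMT414C* had -0.43 ± 0.15 and -0.36 ± 0.14. Of 24 genes of nitrogen and sulfur assimilation 0 were DEGs, and 50% had a positive log2 fold change. Without overlap, 16.7% lay above the controls (against 11.2% of all genes) and 16.7% below (against 12.0%). First in rank was *CMI233C*, the glutamine synthetase that binds ammonium. It was at 2932, 2365 and 2821 CPM against 4621, 4058 and 4683 CPM (-0.72 ± 0.20, edgeR adjusted p = 0.194), a gap wider than the range of either group. With DESeq2 (0.627% of all genes called) *CMI233C* passed the threshold.

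DNA replication genes had a median of -0.10 and 0 DEGs among 32, but only 20 of them (62.5%, against 82.5% of all genes) were bounded within a 2-fold change by their 95% confidence interval. DNA repair genes had a median of -0.02 and 0 DEGs among 45, of which 41 were so bounded. *CMR026C* was the only DEG of the 26 chromatin and DNA methylation genes (3.85%, against 0.146% of all genes), whose median was 0.01. Without overlap, 11.5% of the 26 lay above the controls (against 11.2% of all genes) and 15.4% below (against 12.0%). Cell division and cytoskeleton genes had a median of 0.07 and 0 DEGs among 69, and *CMI207C*, a condensin II subunit, was at 50.5, 38.9 and 39.8 CPM against 30.4, 34.2 and 28.1 CPM (0.48 ± 0.18). Lipid metabolism had a median of 0.08 and 0 DEGs among 49, with 13 members (26.5%, against 11.2% of all genes) above the controls without overlap. Tricarboxylic acid cycle, nucleus-encoded respiratory chain, ABC transporter, starch and sugar storage, translation factor, mitochondrion-encoded, V-type ATPase and polyamine genes had medians between -0.02 and 0.11, with 0 DEGs. Of the 22 tricarboxylic acid cycle genes, 22.7% lay above the controls without overlap (against 11.2% of all genes) and 0% below (against 12.0%). The share above ran from 0% (mitochondrion-encoded) to 25% (4 V-type ATPase genes) in the other lists of this group. Of the study's other named genes, *CMN027C* (chromosome segregation), *CMR269C* (NagB/RpiA/CoA transferase-like) and *CMM104C* (insulinase-like peptidase) had log2 fold changes of 0.28 ± 0.29, -0.19 ± 0.11 and -0.11 ± 0.10.

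The largest estimates beside those of the DEGs carried wide errors. *CML339C*, a steroid monooxygenase by description, had the lowest log2 fold change of all, -2.35 ± 1.16 (edgeR adjusted p = 0.577), from 222, 144 and 1085 CPM in 1A, 1B and 1D against 1377, 3370 and 2642 CPM. *CMM067C*, with no description, was at 26.7, 19.5 and 79.6 CPM against 131, 179 and 173 CPM, and *CMH047C*, described as chloroplast RNA binding, was at 167, 114 and 503 CPM against 616, 1157 and 986 CPM. Library 1D was the nearest to the controls in all 3 genes. The log2 fold changes of *CML339C*, *CMM067C* and *CMH047C* were -2.35, -1.92 and -1.81 with 1D and -3.75, -2.80 and -2.71 without it, where their edgeR adjusted p was 0.267, 0.195 and 0.163. Library 1D was the highest 1 mM library in 55 of the 58 genes estimated at less than 0.5-fold, against 2069 of 4796 tested genes. On the higher side, *CMR322C* had 2, 4 and 3 counts in 1 mM Ni and 0 in each control. Its counts in both groups lie at or near a floor of 3 counts per library, so no lower bound of its change is given. *CMO001C* had 3, 7 and 10 counts against 1, 0 and 0.

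Most genes were measured well enough to bound their change. In 3959 genes, 82.5% of those tested, the 95% confidence interval of the log2 fold change lay within a 2-fold change in either direction, and the median standard error was 0.20. Of the 66 tested genes of cytosolic ribosomal proteins 65 were bounded in this way, of the 28 proteasome genes 25 and of the 15 carbon fixation genes 10. The share was lower in other lists. It was 1 of 17 for mitochondrion-encoded genes, 26 of 190 for chloroplast-encoded genes, 10 of 23 for the glycolysis list, 13 of 25 for trefoil and hedgehog genes and 20 of 32 for DNA replication, so that a median near 0 in these lists does not show that their members were unchanged.

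The response to 1 mM Ni was next compared between days. For the difference between the response on day 10 and that on day 5, 0 of 4796 genes passed the threshold in edgeR, 264 had an unadjusted p under 0.05, and DESeq2 also called 0. *CMO185C* and *CMO184C* were higher on day 10 by 1.84 and 2.35 on the log2 scale, with unadjusted p of 0.0091 and 0.00713, and no named gene had an adjusted p below 0.81. Without the untreated day 5 library C3, 238 genes passed. On day 5 itself 23 genes (0.480%) were DEGs at 1 mM Ni. For day 15 against day 10, 0 genes passed and 466 had an unadjusted p under 0.05, with DESeq2 also calling 0, and only 2 cultures at 1 mM Ni were sequenced on day 15.

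At 3 mM Ni on day 10, 1402 genes (29.2%) were DEGs against the same 3 untreated libraries, so the doses share their controls. All 7 DEGs of 1 mM Ni were among them, in the same direction. The doses compared with each other gave 410 DEGs (8.55%), 240 higher and 170 lower in 3 mM Ni. *CMD002C* and *CMR001C* were higher in 3 mM than in 1 mM Ni, by 1.28 ± 0.31 and 1.09 ± 0.30 on the log2 scale (edgeR adjusted p = 0.0182 and 0.0299). For *CMK153C*, *CMO185C* and *CMR026C* the dose difference was -0.35 ± 0.41, -0.18 ± 0.44 and 0.04 ± 0.35, and the edgeR adjusted p was at least 0.631. The transporter *CML262C* was higher in 3 mM Ni by 1.31 ± 0.39 (edgeR adjusted p = 0.0408), and *CMQ297C* was lower by 1.03 (SE 0.18, edgeR adjusted p = 0.00628). The count of 410 rests on single libraries, and was 5 without 3B, 10 without 3A, 17 without 1A, 83 without 1B, 205 without 1D and 876 without 3C.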

How the data were processed

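Poly(A)-selected RNA of 29 libraries was sequenced. Reads were trimmed by the authors (Trimmomatic), aligned to the ASM9120v1 assembly (Hisat2), cleared of optical duplicates (GATK MarkDuplicates) and counted per gene with regard to strand (HTSeq-count), which by default drops reads that align to several places. The deposited values are these counts, without normalization, and the library sums were 2602444 to 4067107. Groups were read from the labels. Genes were tested in R 4.3.3 with edgeR 4.0.16, using filterByExpr (188 genes left out), TMM factors and a quasi-likelihood fit with 1 coefficient per condition. The common dispersion was 0.0419. DESeq2 1.42.0 served as an alternative. Standard errors derive from the fitted fold change and its F statistic. The procedure was tested on simulated data. Positions and gene order come from the RefSeq annotation of ASM9120v1, which matched 4730 of 4984 loci. Members and gene lists (words of the gene descriptions, or loci, which for metal transport were those of the study) were chosen with earlier results of these data known, so lists are described without a test. Named genes are the DEGs, the 8 higher and 8 lower non-overlapping genes next in p, up to 3 members per list, 16 loci from the study's text and the 3 largest changes each way, unless said otherwise. The replicate block was added after the data were seen. Alternatives were other size factors, filters, fits and left-out libraries.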

Additional observations from a re-analysis of the deposited data

How the results depend on the processing

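The count of 7 DEGs changed with the libraries and the tool. It was 76 with only the 6 libraries (44 higher), 37 with only the 9 libraries of day 10, 31 with DESeq2, 1 with at least 10 counts in every library, where 4 of the 7 were tested, and 18 at an adjusted p under 0.1. Leaving out 1 library at a time gave 2 to 51 DEGs: 2 without 1B or C5, 3 without 1A, 4 without C3, 6 without C1, 11 without 1D, 14 without the untreated day 5 library C3 and 51 without the untreated day 15 library C1, which is outside the comparison. All 7 were kept by DESeq2 and without either of these 2 outside libraries, 4 with only the 6 libraries, and *CMO185C* in each of these fits. The difference between doses on day 10 gave 622 genes with DESeq2, 672 with only the 9 libraries of day 10 and 5 to 876 on leaving out 1 library. The difference between days 10 and 5 gave 0 to 238 genes on leaving out 1 library, and that between days 15 and 10 gave 0 throughout. Genes without overlap numbered 1326 to 2020 on leaving out 1 library, against 1115, as fewer libraries overlap less. The difference in the chloroplast share ranged from -1.41 to -0.834 percentage points on leaving out 1 library. Among the genes with a value in the text, the sign changed under an alternative only for *CML004C*, whose log2 fold change ranged from -0.239 without 1D to 0.0865 without 1A on leaving out 1 library, with 0.0611 without 1B and 0.025 without C5.

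No paired analysis was possible because the 1 mM and untreated libraries of day 10 carry no common label. Within a dose some labels recur across days, and as an alternative added after the data were seen, a replicate block of these labels gave 0 genes for both differences between days. The deviations of same-labelled libraries from their group means correlated at -0.248 to 0.230. Each group mean holds the library itself and few others, so these values cannot show whether a label stands for the same culture. The labels were not taken to pair samples. With 3 libraries a group and control libraries up to 0.504 apart, a 2-fold change was outside the 95% confidence interval in both directions for only 3959 of 4796 genes.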

Other observations

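Enzymes of photorespiration, the pathway that recycles the product of Rubisco's reaction with oxygen, had lower values in 1 mM Ni on day 10, although no member was a DEG. The list was put together after its values were seen, from descriptions that name glycolate, glyoxylate, hydroxypyruvate, glycine cleavage, serine hydroxymethyltransferase, glycerate kinase, catalase or formate-tetrahydrofolate ligase, so it is a description with no test. Of 13 such genes, 12 lay below all controls without overlap (92.3%, against 12.0% of all tested genes) and 11 were lower at an unadjusted p under 0.05 (84.6%, against 4.94%), with a median log2 fold change of -1.31. The 95% confidence interval lay within a 2-fold change for 2 of the 13. The median difference from the control mean was -1.47 in 1A, -1.85 in 1B and -0.69 in 1D, against -0.03 to 0.07 in the controls. *CMQ436C*, the peroxisomal glycolate oxidase, was at 299, 233 and 475 CPM against 883, 806 and 854 CPM. *CMS429C*, the alanine:glyoxylate aminotransferase, was at 697, 648 and 1724 CPM against 2565, 3660 and 3463 CPM, and *CMR282C*, the glycine cleavage P protein, at 778, 640.0 and 1421 CPM against 2520, 2517 and 2695 CPM. *CMI050C*, the catalase that removes the hydrogen peroxide of glycolate oxidation, was at 1931, 1533 and 2804 CPM against 3423, 3980 and 4555 CPM. Every value of 1D lay between those of the other 1 mM libraries and the controls in these 4 genes.

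The exception was the serine hydroxymethyltransferase *CMI091C*, with a log2 fold change of 0.23 ± 0.20, while the paralogous *CMO142C* had -1.33 ± 0.45. With only the 6 libraries in the fit, 4 of the 13 genes passed the threshold, where 1.61% of all genes did. With DESeq2 1 passed (0.627% of all genes), and without the untreated day 15 library C1 3 passed (1.06% of all genes), each of them lower. The median of the list at 1 mM Ni was -1.32 on day 5 and 0.01 on day 15, and at 3 mM Ni on day 10 it was -1.60, where 8 genes were lower and 1 higher as DEGs, against 29.2% of all genes called at that dose.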
